A study of Mus musculus with 20 samples.

Results

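Cxcr4 is the chemokine receptor that the conditional knockout in this study removes. It was followed as a single gene, matched by its symbol, which is 1 of 16536 genes listed for the reporter mice and 1 of 16140 listed for the Cre mice, and it has a value in all 20 libraries. The libraries hold RNA of monocytes and microglia taken from mouse brains on day 3 after permanent photothrombosis, a stroke model in which an illuminated dye clots cortical vessels.

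The first set of libraries came from Cxcr4-GFP reporter mice, with 4 libraries of GFP-positive monocytes and 4 of GFP-negative microglia. In these, 1 pair of libraries came from 2 mice, 1 pair from a pool of 5 mice and 2 pairs from 1 mouse each. The second set came from the Cxcr4CreER line, which carries a tamoxifen-dependent Cre recombinase named for the Cxcr4 gene, with 3 libraries each of monocytes and microglia from conditional knockout (KO) mice and 3 of each from control mice. All of these were separated by a marker that the labels write as TdT, with monocytes TdT-positive and microglia TdT-negative in both genotypes, so the controls are labelled with the same Cre line and marker. Both libraries of a pair from the same animal exist for 2 KO and 2 control mice. The labels give no tamoxifen schedule, no sex, no age and no description of the Cxcr4 alleles. The titles of KO libraries carry the tag BrKo and those of controls BrC, and the GFP titles carry BrKo as well, which the labels leave unexplained.

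Cxcr4 couples to inhibitory G proteins and is bound by the chemokine Cxcl12. It is known for holding hematopoietic stem cells, neutrophils and monocytes in the bone marrow and for guiding leukocytes into tissue. Once stimulated, it is phosphorylated by receptor kinases, bound by arrestins and taken into the cell for degradation. Ackr3 is the other receptor of Cxcl12, and the cytokine Mif binds Cxcr4 as well as the pair of Cd74 and Cd44.

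Mouse Cxcr4 lies on the minus strand of chromosome 1. The 120 bases just before its RefSeq start are shown to place the locus whose transcripts were counted (GRCm38.p6, chr1:128592300-128592419, read 5′ to 3′ on the gene's strand), with motif matches in capitals.
Cxcr4 promoter: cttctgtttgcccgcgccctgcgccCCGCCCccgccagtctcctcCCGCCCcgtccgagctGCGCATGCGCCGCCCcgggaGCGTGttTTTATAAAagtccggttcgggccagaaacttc
Both strands of the 250 bases before the start were searched. The palindromic motif of NRF1, a factor known to activate the human gene, was found once, at -59 to -50, and is present in 0.782% of 32851 RefSeq windows of that length. GC boxes (GGGCGG, 32.7% of windows) were found 3 times, all on the opposite strand, and the one nearest the start shares a base with the NRF1 motif. The letters GCGTG, the core of the hypoxia response element, occurred once (28.2% of windows), and TATAAA occurred on both strands in overlapping positions ending at -25 (12.4% of windows). These matches describe the letters alone.

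Values are normalized counts, that is, reads per gene divided by a size factor of the library. Each set of mice has its own normalization, so levels are set side by side within a set alone. Libraries of the reporter mice held 617302 to 14927208 reads, and those of the Cre mice held 9732177 to 56803993 reads. GFP monocytes 3, GFP microglia 3 and GFP microglia 4 stood apart, with 3029, 5598 and 3489 detected genes where the other GFP libraries had 10422 or more. The labelled cell types held for their markers. The summed level of 10 monocyte markers was 4494 to 15280 in GFP monocytes against 2.50 to 393 in GFP microglia, and that of 10 microglia markers was 792 to 3407 in GFP monocytes against 15089 to 27423 in GFP microglia. In the Cre mice the monocyte markers summed to 123387 to 185976 in KO monocytes and 115027 to 155649 in control monocytes, against 2175 to 5302 in KO microglia and 3257 to 7962 in control microglia. Microglia markers there summed to 21783 to 38609 in KO and 23472 to 32821 in control monocytes. In microglia they summed to 242343 to 299895 (KO) and 186649 to 301941 (control). The sum of 7 border macrophage markers, among them F13a1 of the monocyte list, was also high in monocytes, at 42333 to 52553 (KO) and 48098 to 58507 (control). Lyve1, 1 of the 7, was at 0 in all KO and all control monocytes, so the sum does not describe every marker. In microglia that sum was 1554 to 2278 (KO) and 2031 to 4006 (control). Of the 10 monocyte markers, Ly6c2 and Chil3 were at 0 in all GFP microglia, and Ly6c2, Chil3 and Vcan in all KO microglia. The rest were detected there in at least 1 library, and none was at 0 in all control microglia.

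Monocytes of the reporter mice carried Cxcr4 at 2788, 2036, 1266 and 3017 normalized counts, against 10.3, 9.04, 0 and 0 in the microglia of the same animals. The lowest monocyte library was thus 123 times the highest microglia library, and the groups did not overlap, as for 5.22% of tested genes in that direction. Means were 2277 ± 794 in monocytes and 4.84 ± 5.62 in microglia (SD, n = 4 each). The microglia values rest on 4 reads and 21 reads in the first 2 libraries, while a count of 0 allows up to 3.75 and 4.45 normalized counts (3 reads) in the other two. Such limits cover counting error only, because the values per gene do not show which reads copy 1 molecule. The monocyte values rest on 26226 reads in all. Because the populations were separated by the reporter of Cxcr4 itself, the difference checks the labels and is no finding.

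Within animals, monocytes exceeded microglia by 270-fold in the mice of pair 1 and by 225-fold in the pool of 5. In the animals of pairs 3 and 4, whose microglia had no Cxcr4 read, the excess was at least 338-fold and at least 679-fold against 3 reads in that library. The log2 difference on the log2(normalized count + 1) scale was 9.37 (limma, SE 1.30, adjusted p = 7.69e-05), the third highest of 7706 tested genes, of which 0.908% were called at an adjusted p under 0.05 (32 higher and 38 lower in monocytes, or 61 and 45 with each library scaled to its total reads). An exact two-sided permutation test gave p = 0.0286, the smallest that 4 against 4 libraries allow. The libraries are paired by animal or pool, and exact swaps within the 4 pairs gave p = 0.125, the smallest that 4 pairs allow. Without the 3 libraries that stood apart, the difference was 7.92 (SE 0.25), the highest of all genes tested and first by p-value. Cxcr4 is measured against a table in which the median gene was itself 0.51 higher in monocytes (0.65 with each library scaled to its total reads). That median ran from -0.09 (without GFP microglia 4) to 1.43 (without GFP monocytes 3) with 1 library left out, and was -0.05 without the 3 libraries.

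**Figure D1:**
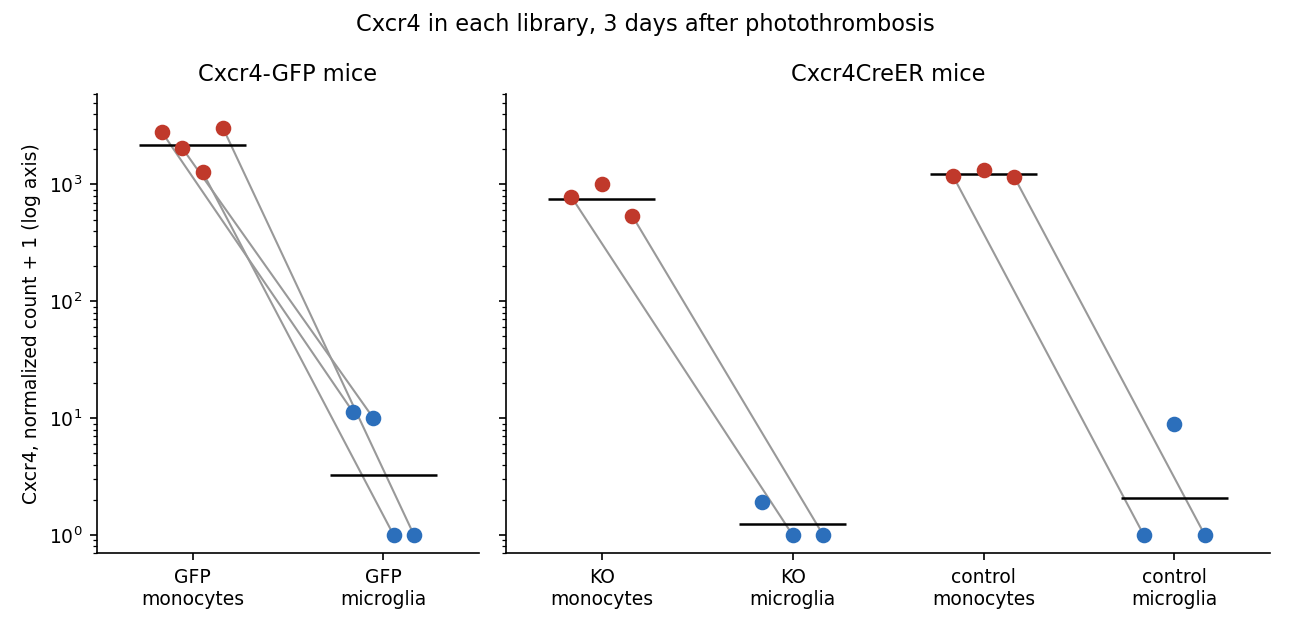
Cxcr4 as normalized count + 1 on a log axis, with 1 point per library, red for monocytes and blue for microglia; black lines are means of the log values and grey lines join libraries of the same animal or pool. Every monocyte library lies above 500 and every microglia library at or below 10.3 normalized counts, and the 3 KO monocyte libraries lie below the 3 control monocyte libraries.

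The check of the knockout is the Cxcr4 level itself. KO monocytes carried Cxcr4 at 784, 1010 and 536 normalized counts, against 1183, 1332 and 1166 in control monocytes. Every KO library was below every control library, yet none was near 0: the KO mean of 777 ± 237 was 63.3% of the control mean of 1227 ± 91.4 (SD, n = 3 each), or 36.7% lower. KO library 3 stood at 43.7%, KO library 1 at 63.9% and KO library 2 at 82.3% of the control mean. KO libraries also varied more among themselves, with a coefficient of variation of 30.5%, against 7.45% in controls. Counting error was small beside this: the Poisson intervals were 733 to 836, 972 to 1049 and 500 to 575 for the KO libraries, from 4400 reads in all.

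No test placed this difference past its threshold. The log2 difference was -0.70 in the fit of all 4 Cre groups (limma, SE 1.10, 95% interval -3.11 to 1.71, adjusted p = 0.962). That fit takes 1 spread for all groups, and for Cxcr4 the spread includes microglia libraries that differ by whether they hold a few reads or none. With the 6 monocyte libraries alone the difference was the same, the SE was 0.32, the 95% interval ran from -1.48 to 0.08, and limma's adjusted p across all genes was 0.921. edgeR on the recovered reads of the same 6 libraries gave -0.63 (adjusted p = 1) and DESeq2 -0.65 (adjusted p = 0.803). The exact permutation test gave p = 0.1, the smallest that 3 against 3 libraries allow.

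A pattern of this kind was not rare among genes. Of 12432 tested genes, 4.15% had all 3 KO monocyte libraries below all 3 control monocyte libraries, and 3.72% did so with a difference at least as large as that of Cxcr4. Among the 3945 genes with a control mean of 500 or more, 3.68% did. By limma, no gene was called lower in KO than in control monocytes and 5 genes (0.0402%) were called higher, while DESeq2 called 183 higher and 155 lower. Those 5, named here because the count is small, are Elane, Upp1, Tnfrsf18, Clec4a4 and Sh2d1b1. Each was at 0 in all 3 control libraries, and 0 genes passed with limma on the 6 monocyte libraries (501 at an unadjusted p under 0.05) or with edgeR on all Cre libraries (869 at an unadjusted p under 0.05).

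Leaving out KO monocytes 3, the library with the least Cxcr4, brought the log2 difference to -0.46, and leaving out KO monocytes 2, the library with the most, brought it to -0.92. As a share of all reads of the library, the KO libraries stood at 64.1%, 79.8% and 44.1% of the control mean and the control libraries at 96.1%, 98.1% and 105.7%, and the groups stayed apart. In bulk RNA, fewer cells with Cxcr4 transcripts and fewer transcripts per cell cannot be told apart. The values are sums per gene and do not show from which exons the remaining reads came.

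**Figure D2:**
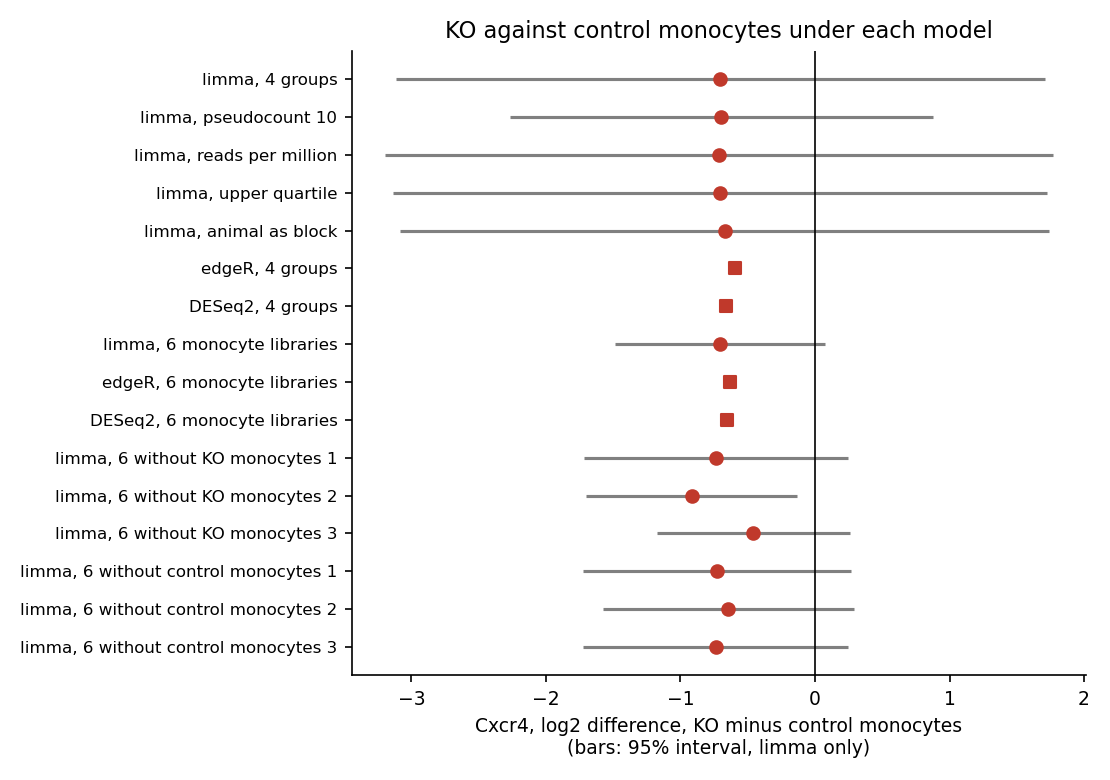
Log2 difference of Cxcr4, KO minus control monocytes, under each model, with 95% intervals for the limma fits (circles) and estimates alone for edgeR and DESeq2 (squares). Every estimate is below 0, between -0.92 and -0.46, and the intervals include 0 except without KO monocytes 2.

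The 10 monocyte markers, all of them detected in both groups, summed to 185976, 123387 and 160905 in KO monocytes, against 155649, 115027 and 153314 in control monocytes, and the ranges overlapped. The sum of 10 neutrophil markers was higher on average in the KO libraries. It was 74833, 49877 and 39994 in KO monocytes, against 16558, 41412 and 31779 in control monocytes, again with overlapping ranges. The sum need not hold for each marker. Mmp8 averaged 927 ± 510 in KO and 473 ± 284 in control monocytes, and Cxcr2 870 ± 523 in KO and 922 ± 935 in control monocytes (SD). Of 10 neutrophil markers, none was at 0 throughout the KO monocytes and Mpo, the myeloperoxidase of neutrophil granules, was at 0 in all control monocytes. B cell markers, 5 of 7 of them listed, summed to 15.6, 28.1 and 13.4 in KO monocytes, against 377, 13.2 and 459 in control monocytes, with overlapping ranges. Cd79b and Vpreb3 were at 0 in all KO monocytes and Cd79a in all control monocytes. The part of neutrophil and B cell RNA in the Cxcr4 difference was not tested.

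**Figure D3:**
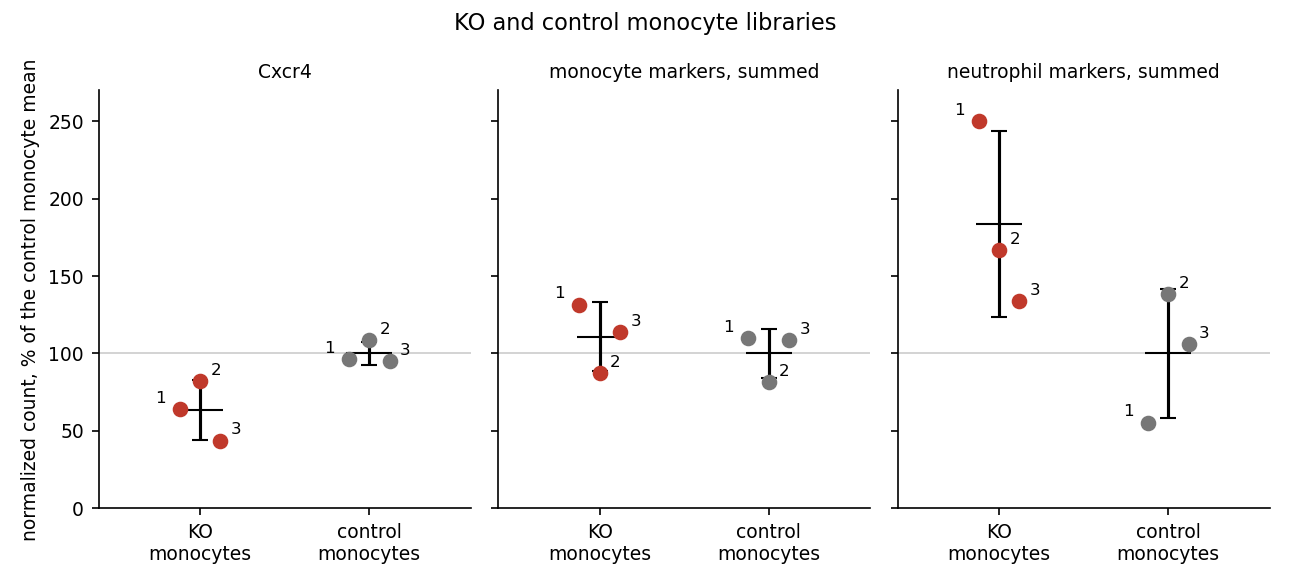
Cxcr4, the summed monocyte markers and the summed neutrophil markers in KO (red) and control (grey) monocyte libraries, each as a percentage of the control mean, with numbered libraries, means and SD. Cxcr4 is between 43.7% and 82.3% in the KO libraries without overlap, while both marker sums overlap between the groups.

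Cxcr4 was near 0 in the microglia of the Cre mice whatever the genotype. KO microglia had 0.912, 0 and 0 normalized counts, from 1 read in 3 libraries, against 0, 7.88 and 0 in control microglia, from 8 reads in 1 library. The groups overlapped, with a log2 difference of -0.74 (limma, SE 1.10, adjusted p = 1) and an exact permutation p of 1. This difference rested on control microglia 2, without which it was 0.31. The control microglia library that held the 8 reads had the lowest monocyte marker sum of its group, at 3257 against 5723 and 7962. In the reporter mice the microglia libraries with Cxcr4 reads had the highest such sums, 393 and 330 against 2.50 and 116. Cxcr4 in microglia was at most 0.642% of the monocyte mean of the same genotype, while monocyte markers in microglia reached 5.63% of theirs. Since KO microglia are TdT-negative and hold no more than 1 Cxcr4 read, the deletion cannot be read in them.

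Monocytes exceeded microglia in both genotypes without overlap, as did 12.7% of genes in KO mice and 9.6% in control mice. The populations were sorted by TdT in a Cre line named for Cxcr4. Like that of the reporter mice, this difference is therefore not independent of the sort and is no finding of its own. In KO mice the log2 difference was 9.24 (limma, SE 1.10, adjusted p = 0.000453), and the KO monocyte mean was 2168 times the pooled KO microglia level, with a counting interval of 389 to 85632 because the denominator is 1 read. In control mice it was 9.21 (limma, SE 1.10, adjusted p = 0.000431). The ratio of means, another measure than the pooled one, was 467 in control mice and 2555 in KO mice. With 8 microglia reads in control and 1 in KO mice, these ratios do not compare the genotypes. Of all genes 6.83% were called between the KO populations (479 higher and 370 lower in monocytes) and 6.52% between the control populations (430 higher and 380 lower). With each library scaled to its total reads the splits were 375 to 460 in KO and 363 to 432 in control mice, and Cxcr4 kept its call. By fold Cxcr4 stood at rank 41 in KO and 39 in control mice among 12432 genes. These ranks and log2 values depend on the pseudocount at such low microglia levels: with a pseudocount of 10 the differences were 6.21 in KO and 6.67 in control mice, and 7.27 in the reporter mice. Within animals the excess was at least 140-fold and 207-fold in the 2 paired KO mice and at least 561-fold and 455-fold in the 2 paired control mice. These are limits against 3 reads in each microglia library, worth 5.62 and 2.59 normalized counts in the KO and 2.11 and 2.56 in the control mice. They shift with the depth of that library and do not compare the genotypes. The genotype-by-population term, which asks whether the KO difference in monocytes departs from that in microglia, was 0.03 (limma, SE 1.56, adjusted p = 0.9995). The permutation tests gave p = 0.1 in each genotype, the smallest possible. The KO against control comparison uses the same monocyte libraries as the comparisons of monocytes with microglia.

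By group mean, the order of Cxcr4 levels in the Cre mice was control monocytes, KO monocytes, control microglia and KO microglia. Neither difference between genotypes was called, and that between the microglia groups rested on control microglia 2. The 2 monocyte groups did not overlap, the step to microglia was far wider than the spread of any group, and the 2 microglia groups overlapped.

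Some genes had a profile close to that of Cxcr4, which is mostly the step between monocytes and microglia. That step is not independent of the sort, so closeness does not show that a gene varies with Cxcr4 within a cell type. Likeness was the root mean square difference between log2 profiles that were each centred on their own mean, so it describes shape and not level, and all profiles share library and depth. Over the 8 GFP libraries Cd74, the invariant chain of MHC class II and part of the Mif receptor, was nearest at 0.48 log2 units, where the median of 7495 ranked genes was 4.74. It averaged 4311 ± 964 normalized counts in monocytes and 15.5 ± 18.0 in microglia (SD, n = 4 each). The MHC class II chains H2-Aa and H2-Ab1 were also among the 10 nearest, with Gpnmb, a glycoprotein of phagocyte lysosomes, the matrix glycoprotein Thbs1, Emp1, Tgfbi, the adhesion receptor Adgre5, the nuclear receptor Nr4a2 and the transcription factor Runx3. H2-Aa averaged 2218 ± 399 in monocytes and 1.72 ± 2.44 in microglia.

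Over the 12 Cre libraries the 10 nearest were the lipid-sensing receptor Gpr132 at 0.73, Runx3 at 0.74, the purine enzyme Gda at 0.87, the scaffold protein Iqgap2 at 0.97, Cd93, the ectoenzyme Cd38, Sirpb1b, the neutrophil collagenase Mmp8, the lipid carrier Fabp4 and Sestd1, where the median of 11641 genes was 5.05. Gpr132 averaged 519 ± 201 in KO and 714 ± 190 in control monocytes, and 0 in KO and 4.22 ± 6.59 in control microglia. Runx3 averaged 1914 ± 180 in KO and 2302 ± 260 in control monocytes, and 1.55 ± 1.95 in KO and 2.63 ± 4.55 in control microglia. None of the 10 was called between KO and control monocytes by limma, which called 5 of 12432 genes (0.0402%) there. With so few calls, none among 10 genes says little about them. Their log2 differences ran from -1.06 for Fabp4 to 1.01 for Mmp8. Cd74 was not among them: in the Cre mice it averaged 118601 ± 41016 in KO and 93341 ± 32795 in control monocytes, and was also present at 2639 ± 928 in KO and 1757 ± 180 in control microglia.

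Over all 20 libraries, centred within each set of mice, Runx3 came first at 1.03 and Gpr132 second at 1.04, followed by Iqgap2, Gpnmb, Thbs1, H2-Ab1, Cd93, Emilin2, Ndrg1 and Acp5, the osteoclast and macrophage acid phosphatase. Runx3 was in the 10 nearest of both sets of mice. The ranking depends on how low values are treated: with a pseudocount of 10, 8 of the 10 GFP genes and 4 of the 10 Cre genes were the same, and Cd74 came first over all 20 libraries. With 1 library left out, 6 to 9 of the 10 GFP genes were the same, with Cd74 first each time. Likewise 6 to 10 of the 10 Cre genes were the same (6 without KO microglia 2 or control microglia 2), with Gpr132, Runx3 or Iqgap2 first, and 7 to 10 over all 20 libraries, with Runx3, Gpr132 or Gpnmb first.

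**Figure D4:**
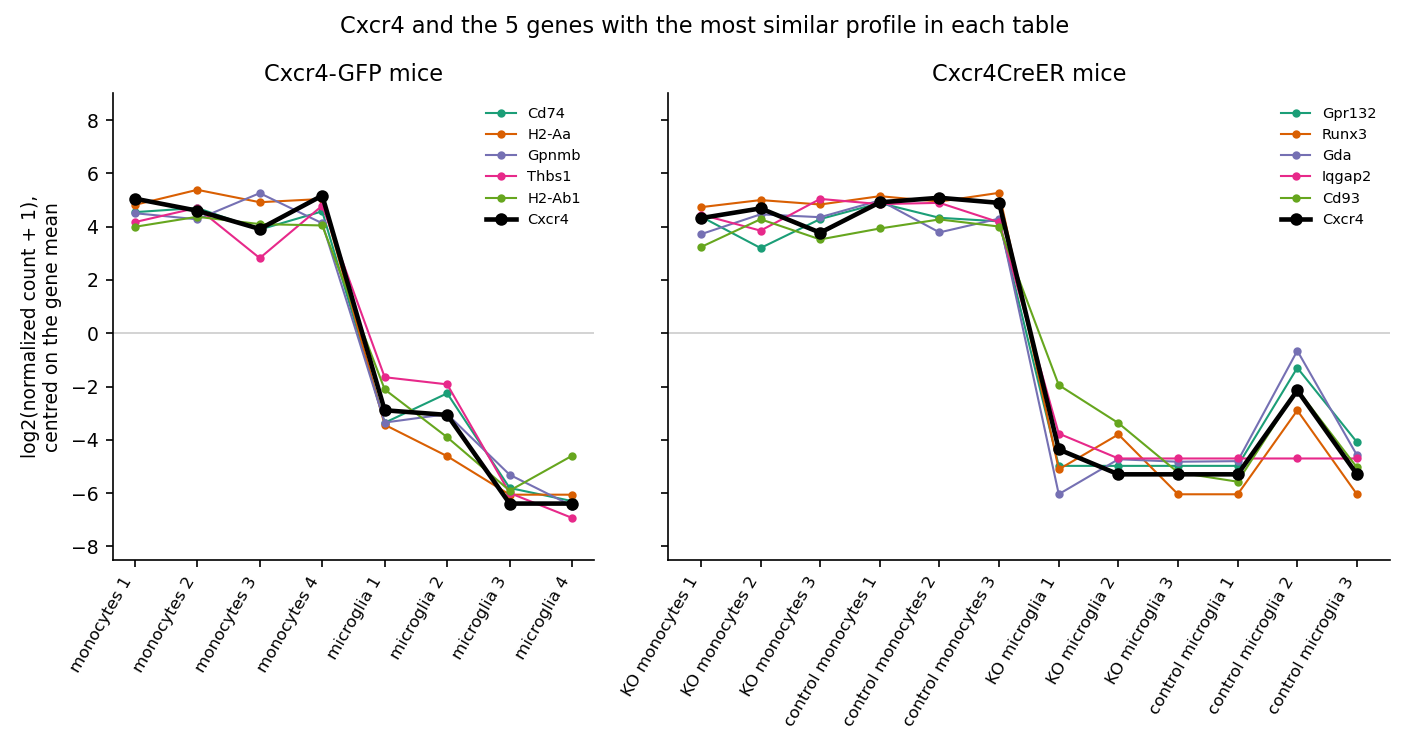
Profiles of Cxcr4 (black) and of the 5 genes with the most similar shape in each set of mice, as log2(normalized count + 1) minus the gene's mean, by library. All profiles lie above 2 in every monocyte library and below 0 in every microglia library. Steps among microglia libraries are large for some genes: Gda ran from 0.912 normalized counts in a KO library to 78.8 in a control library.

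The genes around the receptor were taken from a list of 91, grouped by role. It was chosen with earlier results of these data known, and its members Ccr2 and Itga4 are also monocyte markers here. Shares of called members beside those of all genes therefore describe the list and do not test it. Of the 91 genes, 72 were tested in the reporter mice and 84 in the Cre mice. Cxcl12, the ligand, was listed only for the reporter mice, at 0 in all 4 monocyte libraries and at a mean of 0.108 in microglia, which is below the limit that 0 counts allow. Ackr3 was low: 33.0 ± 57.1 in KO and 3.899 ± 3.456 in control monocytes, 34.5 ± 53.2 in KO and 71.3 ± 122 in control microglia (SD, n = 3 each), and it was not called in the Cre mice. In the reporter mice it averaged 16.8 ± 21.9 in monocytes and 3.66 ± 4.89 in microglia (SD, n = 4 each), too low to be tested.

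In the reporter mice 3 of 72 tested genes were higher in monocytes and 1 was lower, which is 5.56% against 0.908% of all genes. Cd74 was higher by 8.86 (limma, SE 0.99, adjusted p = 6.42e-06). Cd44, the hyaluronan receptor that acts with it, was higher by 5.85 (limma, SE 1.22, adjusted p = 0.0119). Itga4, a subunit of the integrin VLA-4 that works with Cxcr4 in marrow retention, averaged 715 ± 202 in monocytes and 30.8 ± 42.6 in microglia, and Selplg, the ligand of selectins, fell to 298.5 ± 199 in monocytes, against 3092 ± 771 in microglia. Without the 3 libraries of few genes, 14 were higher and 5 lower (19 of 72, where 14.6% of all genes were called). The call of Itga4 was lost with the replicate block of animals and in 6 of 8 fits that left out 1 library, and the call of Selplg was lost without GFP microglia 4.

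In the Cre mice 11 members were higher and 4 lower of 84 in KO mice (17.9% against 6.83% of all genes), and 9 were higher and 3 lower in control mice (14.3% against 6.52%). The median log2 difference of the tested members was 0.34 in KO and 0.48 in control mice, against -0.25 and -0.24 for all genes. With each library scaled to its total reads, the medians of all genes were -0.48 and -0.40, and calls split 9 higher to 7 lower in KO and 8 to 5 in control mice. Chemokine receptor Ccr2, which brings monocytes out of the marrow and into injured tissue, was higher by 7.15 (limma, SE 0.49, adjusted p = 7.68e-06) in KO mice and by 10.02 (SE 0.49, adjusted p = 1.64e-06) in control mice. It averaged 12956 ± 3194 in KO and 14015 ± 900.5 in control monocytes, and 90.9 ± 25.4 in KO and 14.1 ± 8.26 in control microglia. The calls of Cd74, Ccr2, Dpp4 and Mmp9 held in 12 of 12 alternatives in each genotype. Dpp4 and Mmp9 were at 0 in all microglia of the Cre mice, so their calls could only be higher.

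Of the ligands and receptors, Cd74 was higher in both genotypes, by 5.50 (SE 0.33, limma adjusted p = 4.29e-06) in KO mice and by 5.68 (SE 0.33, adjusted p = 3.79e-06) in control mice. Cd44 was called in control mice alone, at 6.78 (SE 1.87, limma adjusted p = 0.0521) in KO and 7.35 (SE 1.87, adjusted p = 0.0379) in control mice, values that do not show a difference between genotypes, and the control call was lost in 7 of 12 alternatives. Mif was 1.36 higher (limma, SE 0.28, adjusted p = 0.0142) in KO monocytes than in KO microglia, and its difference in control mice, 0.98 (SE 0.28, adjusted p = 0.0666), was not called.

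Proteases that trim Cxcl12 or its receptor followed. In KO mice 4 of 6 were higher in monocytes than in microglia, and in control mice 2 of 6 (all genes, 6.83% and 6.52%). Each gene so called was at 0 in all microglia of that genotype, so its call could only be higher. Such counts are no result about this role. Of the 4 in KO mice, the call of Ctsg was lost in 5 of 12 alternatives and that of Elane in 4 of 12. Dpp4, which removes the first residues of Cxcl12, was at 0 in all microglia of the Cre mice and at least 356-fold higher in KO monocytes and 539-fold higher in control monocytes, against 3 reads over the microglia group. Without KO monocytes 1 the KO limit was 116-fold, and without control monocytes 3 the control limit was 303-fold. Mmp9, gelatinase B, was at least 257-fold higher in KO and 194-fold higher in control monocytes on the same terms, and at least 104-fold without KO monocytes 1 and 82.8-fold without control monocytes 1. These limits use group means. Both varied widely, with 382 ± 452 normalized counts of Dpp4 in KO and 448 ± 395 in control monocytes, and 276 ± 284 of Mmp9 in KO and 161 ± 160 in control monocytes (SD, n = 3 each). Elane, the neutrophil elastase, was the one member called between KO and control monocytes (1.19% of the 84, against 0.0402% of all genes): it stood at 2161, 306 and 119 in KO monocytes, against 0, 0 and 0 in control monocytes, a mean at least 719.7-fold higher against 3 reads over the control group, or at least 177-fold without KO monocytes 1 (limma adjusted p = 0.0207). With 0 in all control monocytes, Elane passed the low-value filter through its KO monocyte values, so its call could only be higher. A single such member is no result about the list. The Elane call was lost with edgeR, with DESeq2, in the fit of 6 monocyte libraries and in 4 of 6 fits that left out 1 library. Ctsg, the granule protease cathepsin G, averaged 387 ± 349 in KO and 32.8 ± 56.8 in control monocytes without being called (adjusted p = 0.539). Neutrophil marker sums, given above, were also higher on average in the KO libraries, and their part in Elane and Ctsg was not tested.

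Of 10 G protein subunits, Gnb1 alone was called between populations (all genes, 6.83% in KO and 6.52% in control mice), 0.90 higher (limma, SE 0.23, adjusted p = 0.0390) in KO monocytes than in KO microglia. Among the kinases, arrestins and regulators that switch the receptor off, Rgs1 was 1.13 higher in control monocytes (limma, SE 0.31, adjusted p = 0.0499), and Rgs18 averaged 1782 ± 1500 in KO monocytes and 26.2 ± 43.8 in KO microglia. The calls of Gnb1 and Rgs1 were lost in most alternatives (8 of 12 and 9 of 12). None of the 9 genes of receptor trafficking was called in any comparison by limma over all libraries. Of 12 kinases and second messenger enzymes Jak2, the cytokine receptor kinase, was 1.68 higher (SE 0.45, limma adjusted p = 0.0441) in KO and 1.95 higher (SE 0.45, adjusted p = 0.0225) in control monocytes, and of 12 motility genes the GTPase Rac1 had a log2 difference of -0.79 in KO mice (limma, SE 0.21, adjusted p = 0.0415). Jak2 was lost in 8 of 12 alternatives in KO and 5 of 12 in control mice, and Rac1 in 7 of 12.

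Among regulators of Cxcr4 transcription, Klf2, a repressive factor of quiescent leukocytes, was lower in monocytes of both genotypes: 663 ± 119 in KO monocytes against 1990 ± 194 in KO microglia, and 494 ± 227 in control monocytes against 1607 ± 470 in control microglia. Cebpb, a factor of inflammatory myeloid cells, was 1.67 higher in control monocytes (limma, SE 0.41, adjusted p = 0.0309) and its difference in KO mice, 1.19 (adjusted p = 0.118), was not called. The Klf2 calls were lost in 7 of 12 alternatives in KO and 5 of 12 in control mice, and that of Cebpb in 8 of 12. Nrf1, whose motif stands in the promoter shown above, averaged 60.1 ± 54.5 in KO and 209 ± 118 in control monocytes and was not called, nor was the hypoxia factor Hif1a in the fits of all libraries. Of the genes of marrow retention, Itga4 was higher in monocytes of both genotypes, and Selplg and Vcam1, the partner of VLA-4, were lower. The Itga4 call was lost in 5 of 12 alternatives in KO mice and in none of 12 in control mice, and that of Selplg in 4 of 12 in KO and 1 of 12 in control mice. Vcam1 stood at 274.9 ± 20.001 in KO monocytes against 1201 ± 214 in KO microglia, and at 315 ± 31.7 in control monocytes against 964 ± 337 in control microglia, a call lost in 8 of 12 alternatives in control mice and in 1 of 12 in KO mice.

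Between KO and control monocytes, limma called no other member of the list, and DESeq2 called 1, the G protein subunit Gnai1, lower in KO monocytes. In microglia limma called 0 of 84 members, with edgeR 0 and DESeq2 1 (Ccr2), beside 4 genes (0.0322%) of all tested. These were Ermn, higher, and Tmem177, Aldh1l1 and Trip13, lower in KO microglia, named because the count is small. Ermn was at 0 in all control microglia and Aldh1l1 and Trip13 in all KO microglia, so their calls could go 1 way only. Tmem177 was at 0.862 or less in KO microglia. Over all genes, 0 passed with edgeR, with limma on the 2 microglia groups alone or with a minimum of 50, and 0 to 5 with 1 library left out. For the genotype-by-population term the count was 0 of 84 as well, with 0 of 12432 genes called by limma and 590 (4.75%) at an unadjusted p under 0.05, while DESeq2 called Ccr2, Gnai1 and Itgb1 lower for this term and edgeR 0 members.

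**Figure D5:**
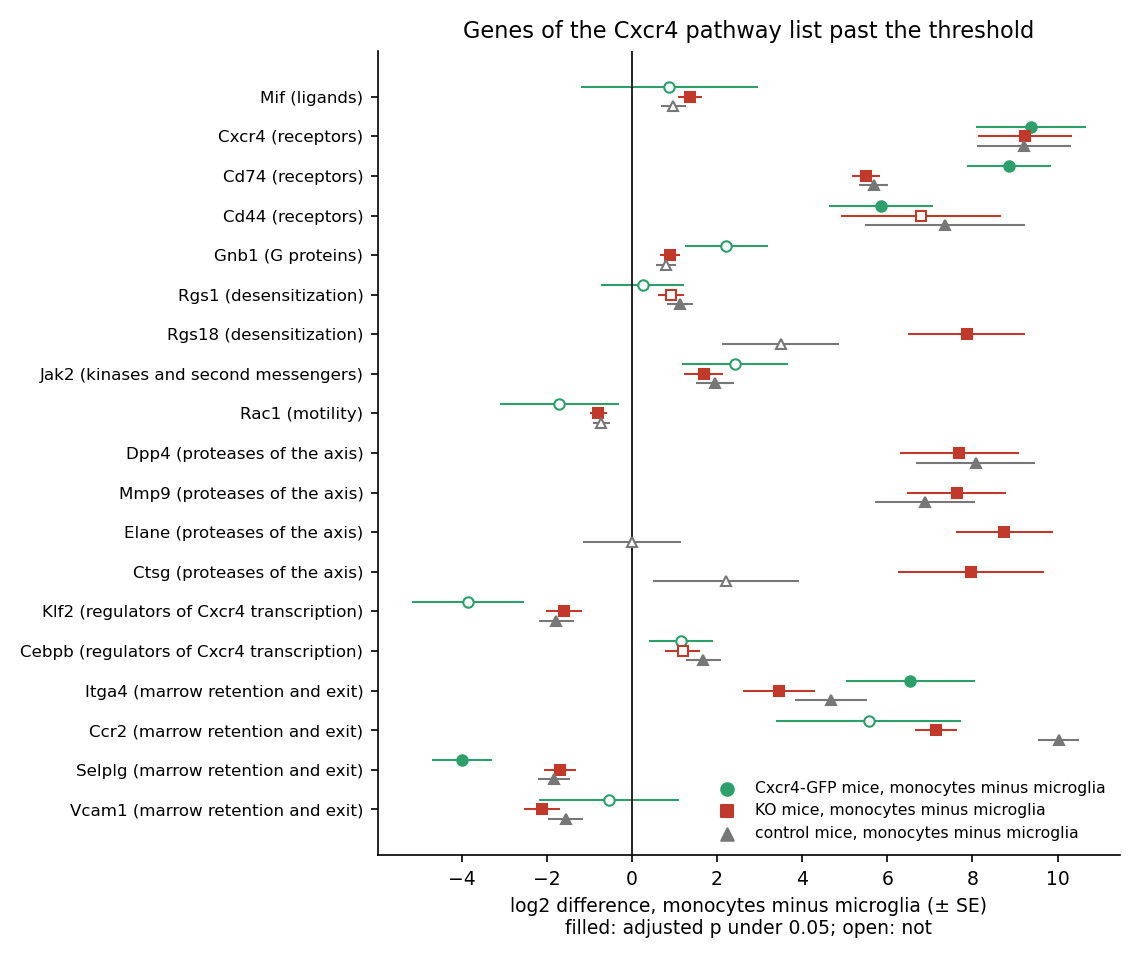
Log2 differences (± SE), monocytes minus microglia, of Cxcr4 and of each listed pathway gene that passed an adjusted p under 0.05 in at least 1 set of mice, by role; filled symbols passed and open symbols did not. Cxcr4 lies near 9 in all 3 sets, Cd74 between 5.50 and 8.86, and Selplg, Vcam1 and Klf2 lie below 0. Fitted values of genes at 0 in a group (Dpp4, Mmp9, Elane, Ctsg) depend on the pseudocount.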

How the data were processed

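RNA was extracted with Qiagen miRNeasy, and libraries were made with Nugen Ovation SoLo from total RNA (GFP mice) and with SMART-Seq2 from polyA RNA (Cre mice), per the labels' protocols. The deposited values are a signal, normalized counts per gene in 2 tables. Tools named per the submitters' processing notes were CASAVA 1.82 (GFP mice), bcl2fastq 2.20 and kallisto (Cre mice) and, for both, DESeq2. No source used here gives the build or annotation. All positive values (100%) were whole multiples, with a tolerance of 0.01, of what 1 read is worth in that library. The reads so recovered went into count tests, in which edgeR called 100 genes between the GFP populations, 522 between the KO and 478 between the control populations. Altered names of 684 genes were restored.

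The main test was limma 3.58.1 on log2(value + 1) (trend, two-sided; R 4.3.3) for genes of 10 or more in at least 4 (GFP) or 3 (Cre) libraries, which left 7706 and 12432 genes. Calls required an adjusted p (Benjamini-Hochberg) under 0.05. The GFP fit had 2 groups and the Cre fit 4 groups sharing 1 spread. Alternatives included edgeR 4.0.16, DESeq2 1.42.0 and the animal as a replicate block. The limma step was tested on simulated data. Of 24 pairs of replicates none were identical or within sampling noise. Animals, per the titles, pair 4 GFP, 2 KO and 2 control couples of libraries. Deviations of paired libraries correlated at 0.238, 0.198, 0.127 and -0.113 in GFP mice and between -0.056 and 0.010 in Cre mice. The pathway list, the likeness rule and the marker lists were chosen with earlier results of these data known. Named genes were Cxcr4, the 10 genes of most similar profile per scope without predicted genes, pseudogenes, Rn45s, antigen receptor segments and names turned into dates, and up to 4 called pathway genes per role and comparison. Nrf1 and Hif1a, the small sets of called genes and members called by DESeq2 alone fall outside that rule and were named after their values were seen. Promoter sequence is from RefSeq (GRCm38.p6). P-values measure the spread between these libraries.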

Additional observations from a re-analysis of the deposited data

Results flagged for a closer look

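Among 20 named genes in the 2 GFP groups (40 combinations), 8 had a library whose gap to the nearest of the other three passed Dixon's 95% critical value as a share of the group's range. Cxcr4 was in neither group one of them. In GFP microglia, library 2 alone held reads of Emp1 (0.430 normalized counts), Adgre5 (4.30), Iqgap2 (2.15), Cd93 (4.73) and Ndrg1 (5.59), each a gap of 1.0 of the range. With the other three at 0 that gap is 1.0 whatever the value, so the rate of about 1 in 20 that chance gives does not apply to these 5. All 5 values are below the 7.75 normalized counts that a count of 0 allows in GFP microglia 1, so they are not shown to differ from the zero there. That library 2 had 5551307 reads, against 617302 to 1106506 reads in the other GFP microglia. Cd44 was at 182 in GFP microglia 4, with the next library at 15.5 (gap 0.921). In GFP monocytes Nr4a2 was at 596 in library 1, with the next at 293 (gap 0.887), and Cd93 was at 15.9 in library 3, one of the libraries of few genes, with the next at 989 (gap 0.874).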

How the results depend on the processing

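Cxcr4 was called between monocytes and microglia in 18 of 18 alternatives in GFP mice (log2 difference 7.27 to 9.97), in 15 of 15 in KO mice (6.21 to 10.90) and in 15 of 15 in control mice (6.67 to 10.26). Monocytes and microglia were sorted by GFP or TdT, so these calls are not independent of the sort. Between KO and control monocytes Cxcr4 was lower and not called in 23 of 23 (-0.92 to -0.46). Leaving out 1 library each time, the difference ranged from 8.80 to 9.97, 9.03 to 9.56, 8.68 to 10.26 and -0.92 to -0.46 in these comparisons. The difference between KO and control microglia ranged from -1.26 to 0.31 with a library left out. The genotype-by-population term, 0.03, was -0.46 with a pseudocount of 10 and -1.02 to 0.56 with a library left out. It was 1.92 by edgeR and 1.94 by DESeq2, and the difference between KO and control microglia, which rests on 9 reads in 6 libraries, was -2.52 by edgeR and -2.60 by DESeq2. With the animal as replicate block the GFP difference was 9.37 (limma adjusted p = 0.00138), the KO against control monocyte difference -0.67, and no call of Cxcr4 by limma changed. The exact permutation p in GFP mice was 0.125 with swaps within animals, an alternative chosen after seeing the data.

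The pathway count of 4 in GFP mice was 19 without the 3 libraries of few genes and 2 to 4 with a library left out. The count of 12 in control mice was 19 by DESeq2, 5 in a fit of the 2 groups alone and 6 to 11 with a library left out, and the count of 15 in KO mice was 9 by edgeR, 23 by DESeq2, 22 in a fit of the 2 groups alone and 7 to 11 with a library left out. Between KO and control monocytes the count of 1 was 0 by edgeR and on the monocyte libraries alone, and 0 to 2 with a library left out. DESeq2 called 1 member between the microglia groups and 3 for the term, where limma called 0. Over all genes, limma called 70 in GFP mice, against 198 with a pseudocount of 10, 106 and 127 with total-read and upper quartile scaling, 181 by DESeq2, 38 with no filter, 150 without GFP monocytes 3 and GFP microglia 4, 1058 without the 3 libraries and 33 to 83 with a library left out. It called 849 in KO mice, against 1570 by DESeq2, 522 by edgeR, 968 in a fit of the 2 groups alone and 480 to 619 with a library left out, and 810 in control mice, against 1614 by DESeq2, 478 by edgeR and 386 in a fit of the 2 groups alone. Between KO and control monocytes it called 5, against 338 by DESeq2 on 4 groups, 94 by DESeq2 on 6 libraries, 0 by edgeR, 0 by limma on 6 libraries, 0 with a minimum of 50 and 1 to 29 with a library left out. DESeq2 called 108 between the microglia groups and 276 for the term. Between the microglia groups limma called 4, against 0 by edgeR, 0 in a fit of the 2 groups alone and 0 with a minimum of 50. The cause of these differences was not tested.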
